A study of Zea mays with 18 samples.

Results

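The 6 libraries of basal cells and 24 h zygotes, of 18 libraries in the study, were compared to describe how the maize transcriptome differs between the zygote before it divides and the basal cell, the lower daughter of the first division. They were chosen by their labels: 3 libraries of basal cells and 3 of zygotes. All cells came from untreated wildtype plants of the inbred line B73 (Zea mays) kept in a growth chamber. The zygotes were isolated 24 h after pollination, as the label "24HAP" was read here, and each library pooled 16 to 17 of them per the series' design text, whereas each basal library pooled 13 to 14 cells. The labels give no time for the daughter cells. Cells were dissected by hand and frozen, and polyadenylated RNA was copied with a low-input cDNA kit and amplified without molecular identifiers. The remaining 12 libraries were sperm cells, egg cells, 12 h zygotes and apical cells, the sisters of the basal cells, in 3 libraries each.

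In flowering plants the zygote is polarised and its first division is asymmetric. The small apical daughter gives rise to most of the embryo proper, while the larger basal daughter contributes mainly to the suspensor, the structure that links the embryo to maternal tissue. The egg supplies transcripts to the zygote, and the zygote's own genome is transcribed before this division, so RNA in the basal cell can be inherited from the egg, made in the zygote or made in the daughter.

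Total counts per library were 18159143 to 19449909 in 24 h zygotes and 18199750 to 20313104 in basal cells, and 25843 to 27376 and 24141 to 26436 gene IDs had a count. Across genes, which are not independent replicates, the Spearman correlation was 0.947 to 0.965 between zygote libraries, 0.953 to 0.963 between basal libraries and 0.851 to 0.907 between a basal and a zygote library. The factors of the TMM scaling, which sets libraries to a common level through the bulk of their genes, were 1.16 to 1.20 in the zygotes and 0.865 to 0.992 in the basal cells, so they moved with the groups. Levels below are CPM, counts scaled to a common total after each library's size was multiplied by its TMM factor, and are not divided by gene length, and each is compared only within a gene. Nothing in the labels ties replicates to different plants, and the spread on which the p-values rest may therefore be technical. Fewer cells and less RNA per cell cannot be told apart in such pooled libraries.

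The transcriptomes of the 2 groups differed widely. Of 23806 gene IDs tested with edgeR's quasi-likelihood test and Benjamini-Hochberg adjustment, 4276 (18%) were called at an adjusted p under 0.05, of which 2335 (9.81% of those tested) were higher in basal cells and 1941 (8.15%) were lower. At least 4-fold changes were found for 839 of the higher and 696 of the lower IDs. The 2 groups did not overlap for 12466 IDs (52.4%). All tested IDs together had a median log2 fold change of -0.20, and each list below is to be read against that value and those percentages. With library size alone as the scaling the median was -0.55 and the split turned to 1497 higher and 3018 lower, so the share of higher calls was 33.2% against 54.6%. The number of calls fell whichever library was left out, to 1882 without basal replicate 1, 2808 without replicate 2 and 1998 without replicate 3, and to 2460, 2031 and 1690 without zygote 24 h replicates 1, 2 and 3.

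**Figure D1:**
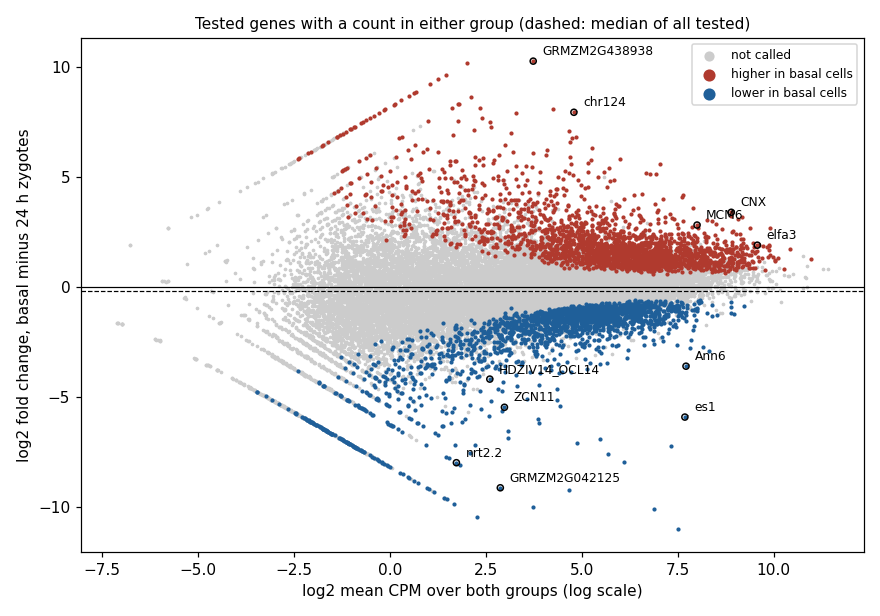
Log2 fold change between basal cells and 24 h zygotes (y axis) against the log2 mean CPM of both groups (x axis), 1 point per tested gene ID with a count in either group, with called IDs coloured and some genes of the text circled. Calls of lower genes reach far down at high levels (es1, Ann6), while genes such as CNX and elfa3 stand out among the abundant higher ones.

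Some entries of the reference table pair with several IDs, and the fold changes of such IDs differed. Among entries of the reference table that pair with at least 2 tested IDs, 357 in all, the log2 fold changes of the IDs of 1 entry spanned a median range of 1.22. At least 1 ID was called higher for 101 entries, but all IDs of the entry were called higher for 27, and the sum of their counts was called higher for 66. chr124, named as a chromatin remodelling factor, shows the span. Its ID GRMZM2G130739 had 0, 0.648 and 0 CPM in the zygotes and 71.8, 31.6 and 62.5 CPM in the basal cells, a log2 fold change of 7.92 ± 1.82 (edgeR adjusted p = 0.01002). Its ID GRMZM2G049766 had 60.3, 46.4 and 73.7 CPM and 121, 76.1 and 106 CPM, a log2 fold change of 0.75 ± 0.29 (edgeR adjusted p = 0.0826). Of the 4 tested IDs of chr124, 3 were called higher. Summing all 4 gave 1.87, with an edgeR adjusted p of 0.00428. The chr124 ID GRMZM2G130739 lost its call without zygote 24 h replicate 3 (edgeR adjusted p = 0.0516), and was at least 796-fold higher in basal cells without zygote 24 h replicate 2, where the zygote group was at 0 counts and was set to 3. The IDs of dcl4, a Dicer-like enzyme of small RNA production, differed too. Its ID GRMZM2G024466 went from 1.49 ± 2.31 to 44.2 ± 3.40 CPM (SD, n = 3), whereas GRMZM2G160473 had 68.7 ± 5.28 and 68.2 ± 5.32 CPM. The fold changes of these IDs of dcl4 were 4.88 ± 1.31 and -0.01 ± 0.27 on the log2 scale, and the sum gave 0.85. The dcl4 ID GRMZM2G024466 lost its call without basal replicate 3 or zygote 24 h replicate 2 or 3 (edgeR adjusted p = 0.0501 to 0.0784), and had a log2 fold change of 8.08 without zygote 24 h replicate 1.

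**Figure D2:**
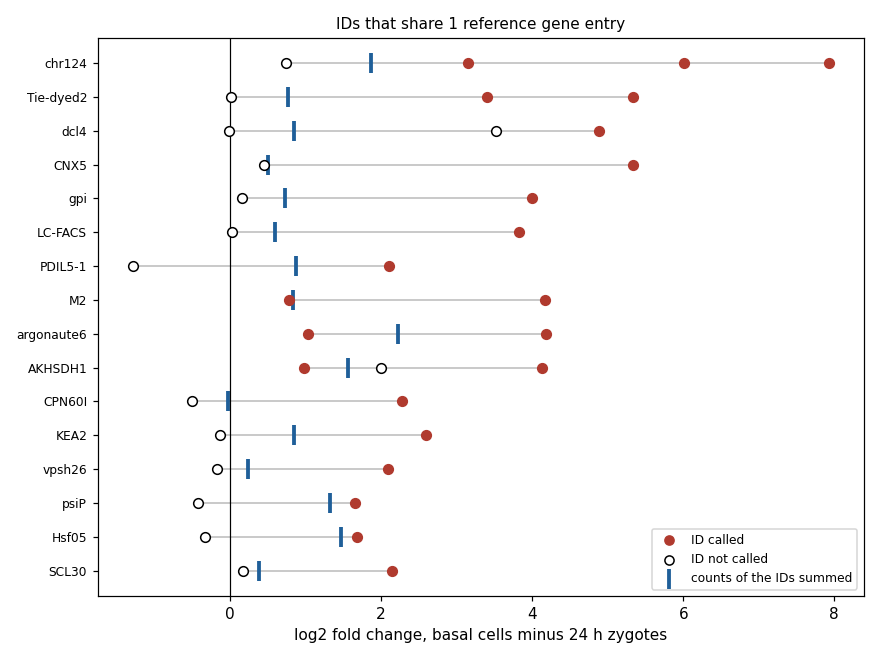
Log2 fold change between basal cells and 24 h zygotes (x axis) of every tested ID (circles, filled where called) for the 16 named reference entries with a called ID whose IDs differ most, with the fold change of the summed counts as a bar. For chr124 the IDs run from 0.75 to 7.92 while the sum lies at 1.87.

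Such IDs made up 3.62% of those tested, 11% of the IDs called at least 4-fold higher and 2.87% of those called at least 4-fold lower. For 8 of the 10 largest named increases the entry was shared, and 3 of these lost their call when the IDs were summed. The log2 fold change of the gpi ID (GRMZM6G477257), of a glucose-6-phosphate isomerase gene, went from 3.99 to 0.73 (edgeR adjusted p = 0.119 for the sum), that of the LC-FACS ID (GRMZM2G339336), of a fatty acyl-CoA synthetase gene, from 3.82 to 0.60 (edgeR adjusted p = 0.398) and that of the Tie-dyed2 ID (GRMZM2G553532) from 3.40 to 0.76 (edgeR adjusted p = 0.145). The sums stayed called for argonaute6 (ID GRMZM2G347402), a small RNA effector, at 2.23 against 4.18 for the ID alone, and for AKHSDH1 (ID GRMZM2G365423), an aspartate kinase and homoserine dehydrogenase, at 1.56 against 4.13. LC-FACS lost its call without basal replicate 1 or 2 or 3 or zygote 24 h replicate 2 or 3 (edgeR adjusted p = 0.0508 to 0.0701), and had a log2 fold change of 4.43 without zygote 24 h replicate 1. Tie-dyed2 lost its call without zygote 24 h replicate 2 or 3 (edgeR adjusted p = 0.0617 to 0.0628), and had a log2 fold change of 4.51 without zygote 24 h replicate 1. argonaute6 lost its call without basal replicate 1 or 3 or zygote 24 h replicate 1 or 2 or 3 (edgeR adjusted p = 0.0574 to 0.0937) and with no filter on low counts (0.0558). AKHSDH1 lost its call without any 1 of the 6 libraries (edgeR adjusted p = 0.0501 to 0.106) and with no filter on low counts (0.0613). Why the IDs of 1 entry differ was not tested, since the files hold no read positions. Where a shared ID is named below this is said.

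Genes of the egg and embryo sac fell steeply. es1, es2 and es4 encode small secreted cysteine-rich proteins known from the maize embryo sac, where es4 is known for bursting the pollen tube. Their sequences are closely related, so how reads were divided among them is uncertain. es1 (GRMZM2G012012) stood at 315, 222 and 678 CPM in the 3 zygote libraries and at 13.2, 4.33 and 2.53 CPM in the basal libraries. The log2 fold change of es1, a gene chosen in part because its groups did not overlap, was -5.92 ± 0.77 (edgeR adjusted p = 7.22e-04). es1 had a log2 fold change of -6.91 without basal replicate 1 and -5.32 without zygote 24 h replicate 3. The related es4 (GRMZM2G009359) had 330.4, 241 and 600.0 CPM in zygotes and 69.5, 49.7 and 53.2 CPM in basal cells, a log2 fold change of -2.76 ± 0.54 (edgeR adjusted p = 0.00446). For es2 (GRMZM2G128301) the values were 338, 235 and 587 CPM against 89.9, 58.5 and 70.2 CPM, a log2 fold change of -2.41 ± 0.55 (edgeR adjusted p = 0.0102). es2 lost its call without zygote 24 h replicate 3 (edgeR adjusted p = 0.0534). Zygote replicate 3 was the highest of its group for all 3 es genes, and the groups did not overlap, as for 52.4% of all tested IDs. IG1 (GRMZM2G118250), an LBD transcription factor that limits proliferation in the embryo sac, was rare in zygotes at 1.55, 1.12 and 3.19 CPM and rarer in basal cells at 0.285, 0.274 and 0 CPM, with a log2 fold change of -3.33 ± 0.998 (edgeR adjusted p = 0.0336). IG1 lost its call without any 1 of the 6 libraries (edgeR adjusted p = 0.0572 to 0.120).

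A gene of the same list moved the other way. ebe1 (GRMZM2G129157), a gene known from the embryo sac and the basal endosperm, had 10.6, 13.7 and 10.2 CPM in zygotes and 26.02, 44.4 and 24.5 CPM in basal cells and rose by 1.46 ± 0.46 on the log2 scale (edgeR adjusted p = 0.0397). ebe1 lost its call without any 1 of the 6 libraries (edgeR adjusted p = 0.0716 to 0.148) and with all 18 libraries in the fit, library size alone and no filter on low counts (0.0518, 0.140 and 0.0506). In all, 4 of the 6 tested members of this list fell, 1 rose and 1 did not pass, with a median log2 fold change of -2.59, and 0 rose and 2 to 3 fell when 1 library was left out. The summed level of the 6 genes was 1008, 718 and 1922 CPM in the zygote libraries and 216, 237 and 166 CPM in the basal ones. Eggs, for reference, held es1 at 925 ± 728 CPM and 12 h zygotes at 814 ± 87.7 CPM (SD, n = 3). es2, es4 and IG1 were singled out after their values were seen.

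**Figure D3:**
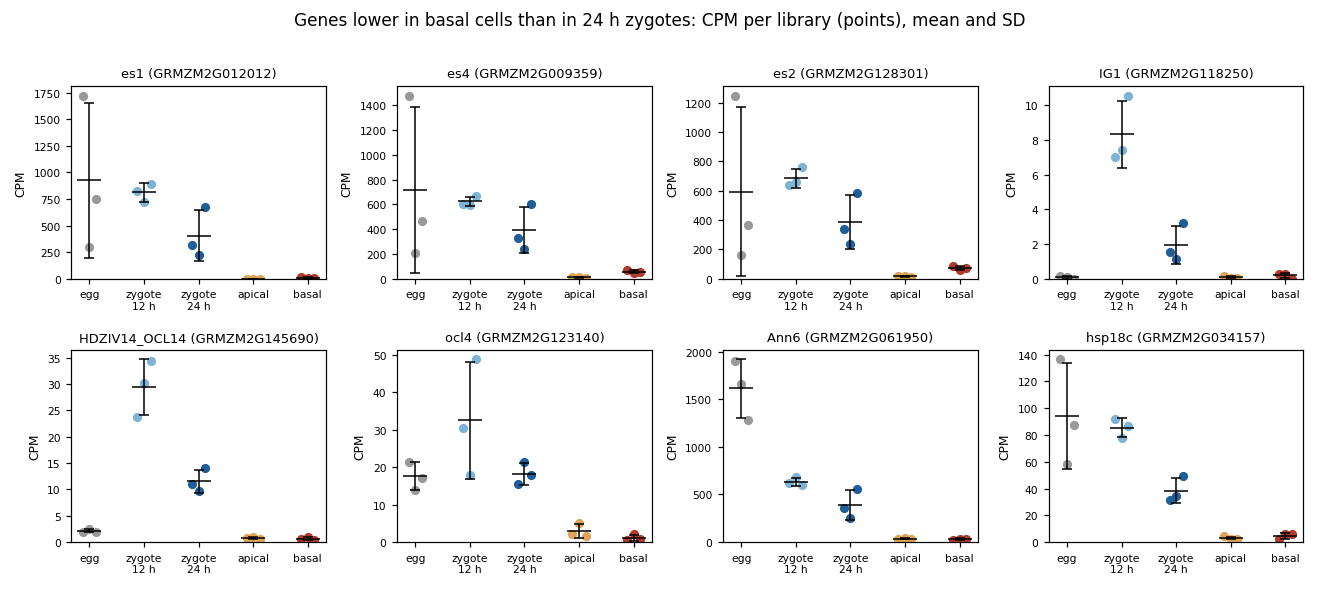
CPM (y axis, linear) of 8 genes that were lower in basal cells than in 24 h zygotes, in each library of 5 groups (x axis), with the mean and SD over 3 libraries. In each panel all 3 basal libraries lie below all 3 libraries of 24 h zygotes, and the apical libraries lie low as well. For es1, HDZIV14_OCL14, ocl4 and Ann6 such separation was a condition of choice.

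Some homeobox genes of the HD-ZIP IV class, known for epidermal and outer cell layer identity in maize, fell. The class was not counted on its own, so the share of its members that fell is not given. HDZIV14_OCL14 (GRMZM2G145690) had 10.97, 9.63 and 14.01 CPM in zygotes and 0.626, 0.931 and 0.309 CPM in basal cells, a log2 fold change of -4.19 ± 0.51 (edgeR adjusted p = 6.41e-04). ocl4 (GRMZM2G123140) had 15.4, 21.3 and 17.96 CPM and 0.569, 2.03 and 0.742 CPM, a change of -4.02 ± 0.61 (edgeR adjusted p = 0.00139). The basal values of both genes were all below the zygote values, which was among the conditions by which both were chosen. Further class members were called with smaller changes, HDZIV8_OCL8 at -1.30 ± 0.33 and ocl1 at -0.93 ± 0.30, both singled out after their values were seen. ocl4 had a log2 fold change of -4.82 without basal replicate 2. HDZIV8_OCL8 lost its call without basal replicate 1 or 3 or zygote 24 h replicate 3 (edgeR adjusted p = 0.0549 to 0.0640). ocl1 lost its call without any 1 of the 6 libraries (edgeR adjusted p = 0.0925 to 0.124) and with all 18 libraries in the fit and no filter on low counts (0.0758 and 0.0511).

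WOX genes are homeobox genes whose members mark the apical or the basal lineage of the early embryo in Arabidopsis. wox9A (GRMZM2G133972), the maize gene named after the Arabidopsis basal-lineage gene WOX9, had 8.18, 9.33 and 15.5 CPM in zygotes, 2.68, 2.96 and 2.78 CPM in basal cells and 2.08, 1.66 and 0.548 CPM in apical cells. It fell between zygote and basal cell by 1.97 ± 0.58 on the log2 scale (edgeR adjusted p = 0.0348), and its difference between basal and apical cells was 0.97 ± 0.57 (edgeR adjusted p = 0.976). wox9A lost its call without any 1 of the 6 libraries (edgeR adjusted p = 0.0590 to 0.137) and with all 18 libraries in the fit and no filter on low counts (0.124 and 0.0545). wox2A (GRMZM2G108933), named after an Arabidopsis apical-lineage gene, had 3.89, 5.14 and 4.29 CPM, 2.22, 1.31 and 2.35 CPM and 1.99, 0.802 and 0.384 CPM in the same order and was not called (edgeR adjusted p = 0.332). All basal values of wox9A were above all apical values, and basal and apical groups did not overlap for 14.9% of all tested IDs. Neither gene was called between basal and apical cells, in a comparison in which the main test called no ID at all. wox9A was singled out after its values were seen.

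Homeobox and patterning factors were counted as 1 list. The list held 80 tested members, of which 4 rose, 9 fell and 67 did not pass, at a median log2 fold change of -1.01, beside 9.81% higher and 8.15% lower among all tested IDs. When 1 library was left out, 2 to 3 rose and 3 to 5 fell. The rising member with the smallest adjusted p was Hox2a (GRMZM2G314546), at 36.3, 25.2 and 18.9 CPM in zygotes against 101, 148 and 119 CPM in basal cells, a log2 fold change of 2.20 ± 0.32 (edgeR adjusted p = 0.00118). Its paralogue Hox2b (GRMZM2G351018) rose by 2.39 ± 0.64 (edgeR adjusted p = 0.0209) and GRF2 (GRMZM2G099862), a growth-regulating factor, by 1.93 ± 0.43 (edgeR adjusted p = 0.00840), both chosen after their values were seen. Hox2b lost its call without basal replicate 2 or 3 or zygote 24 h replicate 1 or 2 or 3 (edgeR adjusted p = 0.0513 to 0.0811).

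Annexins are calcium-dependent membrane-binding proteins and were not a list of their own. Of 6 tested annexins, 3 fell and 3 did not pass, beside 9.81% higher and 8.15% lower among all tested IDs. Ann6 (GRMZM2G061950) had the smallest adjusted p of the named genes that fell. Its CPM were 358, 249 and 557 in zygotes and 23.6, 36.7 and 35.4 in basal cells, a log2 fold change of -3.61 ± 0.30 (edgeR adjusted p = 7.50e-05), and its level in eggs was 1614 ± 310.1 CPM. Ann7 (GRMZM2G064993) fell by 2.47 ± 0.51 (edgeR adjusted p = 0.00594) and Ann9 (GRMZM2G132461) fell by 3.25 ± 0.82 on the log2 scale (edgeR adjusted p = 0.0186), both singled out after their values were seen. Ann9 lost its call without basal replicate 2 or 3 or zygote 24 h replicate 3 (edgeR adjusted p = 0.0614 to 0.0742), and had a log2 fold change of -4.65 without basal replicate 1. CaM1 (GRMZM2G152891), a calmodulin, rose in the same list, from 171, 158 and 154 CPM to 539, 516 and 637 CPM, by 1.81 ± 0.28 (edgeR adjusted p = 0.00149). The list of calcium signalling genes and kinases held 56 tested members, of which 3 rose and 8 fell, with a median of -0.24.

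Other genes with large declines came from varied processes. ZCN11 (GRMZM2G117057), of the FT and TFL1 family of phosphatidylethanolamine-binding proteins, had 10.7, 11.7 and 24.1 CPM in zygotes and 0.854, 0.164 and 0 CPM in basal cells, a log2 fold change of -5.47 ± 0.95 (edgeR adjusted p = 0.00351). ZCN11 was 175-fold (exact 95% counting interval 59.7 to 850.2) higher in zygotes without basal replicate 1, with 3 basal counts left. The glutamate decarboxylase gene GAD (GRMZM2G017110), which makes GABA, had 48.0, 54.3 and 102 CPM and 4.95, 7.01 and 6.61 CPM, a change of -3.46 ± 0.51 (edgeR adjusted p = 0.00118). LPE1 (GRMZM5G858417), a membrane permease, had 40.2, 16.1 and 58.5 CPM and 3.59, 4.38 and 2.04 CPM, a change of -3.51 ± 0.58 (edgeR adjusted p = 0.00217). These 3 genes were chosen among those whose basal values all lay below all zygote values. Their levels in eggs were 51.8 ± 40.8, 144 ± 113 and 122.97 ± 65.8 CPM (SD, n = 3). The AP2 factor gene EREB139 (GRMZM2G103085) had another course, with 0.0690 ± 0.119 CPM in eggs, 49.4 ± 30.7 CPM in 12 h zygotes, 7.52, 26.3 and 25.9 CPM in the 24 h libraries and 0.512, 3.18 and 1.67 CPM in basal cells. It fell by 3.47 ± 0.81 on the log2 scale (edgeR adjusted p = 0.0107). EREB139 had a log2 fold change of -4.22 without basal replicate 2. IDPelo3 (GRMZM2G133793) fell by 3.61 ± 0.68, from 8.80, 7.52 and 16.2 CPM to 0.740, 1.59 and 0.309 CPM (edgeR adjusted p = 0.00388). IDPelo3 had a log2 fold change of -4.39 without basal replicate 2.

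Actin depolymerising factors, which sever actin filaments, moved in opposite directions. The factor ABP1 (GRMZM2G117603, also adf1), known from maize pollen, had 102, 64.7 and 75.7 CPM in zygotes and 4.67, 9.15 and 16.4 CPM in basal cells, a log2 fold change of -3.00 ± 0.41 (edgeR adjusted p = 9.42e-04). ABP3 (GRMZM2G060702, also ADF3), of the same family, moved the other way from 237, 228 and 254 CPM to 489, 435 and 515 CPM, by 0.999 ± 0.21 (edgeR adjusted p = 0.00633). Neither gene's groups overlapped. In tubulin, tub3 (GRMZM2G108766), a beta-tubulin, fell by 2.96 ± 0.61 (edgeR adjusted p = 0.00593) and was chosen after its values were seen. In this list of 25 tested genes, 4 rose, 3 fell and 18 did not pass, and the median log2 fold change was 0.04. With library size alone that median was -0.32.

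Translation factors load, move and release the ribosome on mRNA. Among them, 9 of 13 tested members rose, 1 fell and 3 did not pass, and the median log2 fold change was 1.16, beside 9.81% higher and 8.15% lower among all tested IDs. With 1 library left out, 3 to 8 rose and 1 fell. elfa3 (GRMZM2G154218) encodes the elongation factor that brings aminoacyl-tRNA to the ribosome, and it had 332, 295 and 343 CPM in zygotes and 1349.7, 932 and 1312 CPM in basal cells. Each basal value was above each zygote value, and the log2 fold change was 1.89 ± 0.37 (edgeR adjusted p = 0.00436). The same class of factor rose under the names elfa7 (GRMZM2G110509, 1.44 ± 0.39) and elfa2 (GRMZM2G149768, 1.35 ± 0.38), but copies of this gene are nearly identical, so how reads were divided among them is uncertain. The initiation factor eIF-5 (GRMZM2G165917) rose by 1.98 ± 0.40 (edgeR adjusted p = 0.00519). elfa7 lost its call without basal replicate 1 or 3 or zygote 24 h replicate 1 or 2 or 3 (edgeR adjusted p = 0.0540 to 0.0838). elfa2 lost its call without basal replicate 1 or 3 or zygote 24 h replicate 1 or 2 or 3 (edgeR adjusted p = 0.0687 to 0.0978). The member that fell was eif7 (GRMZM2G022019, also eIFiso-4E), a cap-binding factor, from 127, 124 and 187 CPM to 27.7, 38.7 and 35.5 CPM (-2.10 ± 0.29, edgeR adjusted p = 0.00105). The summed level of the 13 genes was 5114, 4526 and 5147 CPM in zygote libraries and 12130.0, 8481 and 11310.0 CPM in basal libraries. Apart from elfa3 and eif7 these genes were singled out after their values were seen.

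Of the 34 ribosomal protein genes tested, 9 rose, 1 fell and 24 did not pass, with a median log2 fold change of 0.30, and with 1 library left out 2 to 8 rose and 0 fell. Among them rpp2a-3 (GRMZM2G010257), an acidic P2 protein of the ribosomal stalk, had 56.1, 46.5 and 54.3 CPM in zygotes and 206, 192 and 245 CPM in basal cells, a change of 2.04 ± 0.38 (edgeR adjusted p = 0.00372). RPL19 (GRMZM5G887054), of the large subunit and chosen after its values were seen, rose by 1.56 ± 0.31 (edgeR adjusted p = 0.00467). In the other direction rps13 (GRMZM2G158034) fell from 227, 235 and 311 CPM to 102, 115 and 128 CPM, by 1.16 ± 0.34 on the log2 scale (edgeR adjusted p = 0.0290). rps13 lost its call without any 1 of the 6 libraries (edgeR adjusted p = 0.0533 to 0.112). Summed over the 36 members, ribosomal protein genes stood at 7262, 6772 and 7752 CPM in zygotes and at 10860.0, 9171 and 11260.0 CPM in basal cells. With library size alone the medians of the 2 lists were 0.80 for translation factors and -0.06 for ribosomal proteins, and 6 members of each rose.

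**Figure D4:**
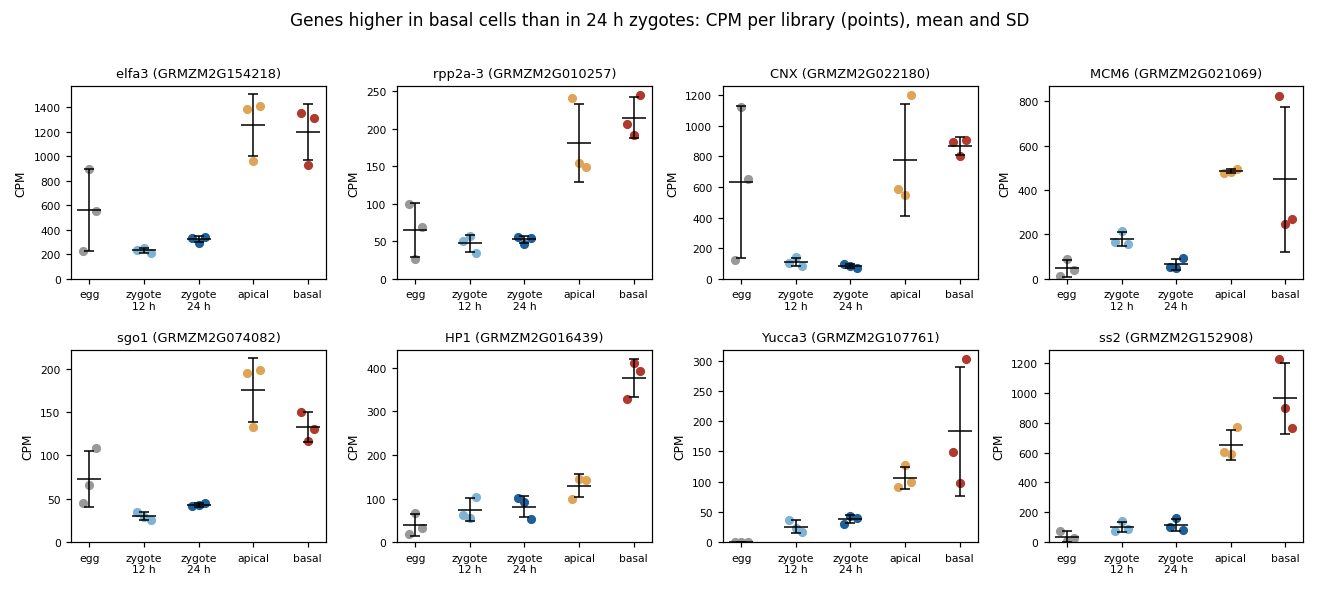
CPM (y axis, linear) of 8 genes that were higher in basal cells than in 24 h zygotes, in each library of 5 groups (x axis), with the mean and SD over 3 libraries. All basal points lie above all points of 24 h zygotes, which was a condition of choice for CNX. For MCM6 and Yucca3, 1 basal library stands far above the other 2.

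In the list of heat shock proteins and chaperones, members moved in both directions. CNX (GRMZM2G022180), the name of calnexin, which folds glycoproteins in the endoplasmic reticulum, had 99.2, 80.7 and 69.7 CPM in zygotes and 893, 800.4 and 910.4 CPM in basal cells, a log2 fold change of 3.38 ± 0.58 (edgeR adjusted p = 0.00240). bip2 (GRMZM2G415007), the luminal Hsp70, went from 32.4, 30.4 and 36.3 CPM to 228, 185 and 357 CPM, by 2.96 ± 0.56 (edgeR adjusted p = 0.00383). hscf1 (GRMZM2G139082) was higher still in its change, with 3.50, 1.77 and 0.715 CPM in zygotes and 39.6, 26.3 and 29.5 CPM in basal cells (3.99 ± 0.62, edgeR adjusted p = 0.00308). hscf1 had a log2 fold change of 4.67 without zygote 24 h replicate 1. hscf1 was at 0 counts in eggs and 12 h zygotes, whereas CNX had 632 ± 498 CPM in eggs and 110 ± 28.3 CPM in 12 h zygotes (SD, n = 3). In the other direction hsp18c (GRMZM2G034157), a small heat shock protein, had 31.5, 34.4 and 49.1 CPM and 2.22, 5.75 and 5.81 CPM, a change of -3.06 ± 0.41 (edgeR adjusted p = 8.68e-04). HSP18 (GRMZM2G404249) fell by 2.61 ± 0.67 (edgeR adjusted p = 0.0177) and hsp101 (GRMZM2G360681), a disaggregase, by 1.98 ± 0.54 (edgeR adjusted p = 0.0234). HSP18 lost its call without basal replicate 1 or 3 or zygote 24 h replicate 3 (edgeR adjusted p = 0.0529 to 0.0776). hsp101 lost its call without basal replicate 1 or 2 or 3 or zygote 24 h replicate 1 or 3 (edgeR adjusted p = 0.0572 to 0.0747). In this list of 42 tested genes, 8 rose, 4 fell and 30 did not pass, and the median log2 fold change was 0.14. The median was -0.21 with library size alone, where 7 rose and 7 fell, and 4 to 7 rose and 1 to 4 fell with 1 library left out. bip2, HSP18 and hsp101 were singled out with their values known, and 3 of the 8 increases (CPN60I, PDIL5-1 and Hsf05) belong to IDs that share a reference entry with another ID. For PDIL5-1 the 2 IDs had log2 fold changes of -1.29 and 2.10, and their sum had 0.87 (edgeR adjusted p = 0.211). The summed IDs of CPN60I had -0.02 (edgeR adjusted p = 0.945) and those of Hsf05 1.47 (edgeR adjusted p = 0.0118).

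Some genes of DNA replication and chromosome segregation rose. MCM6 (GRMZM2G021069), a subunit of the replicative helicase, had 53.3, 46.4 and 93.1 CPM in zygotes and 827, 247 and 272 CPM in basal cells. Basal replicate 1 was far above the other basal libraries, yet all 3 exceeded the zygotes, and the log2 fold change was 2.80 ± 0.61 (edgeR adjusted p = 0.00752). MCM6 had a log2 fold change of 1.98 without basal replicate 1. PCNA (GRMZM2G030523), the sliding clamp of the replication fork, had 104, 147 and 189 CPM and 436, 291 and 245 CPM, a change of 1.14 ± 0.33 (edgeR adjusted p = 0.0298). PCNA lost its call without basal replicate 1 or 2 or zygote 24 h replicate 1 or 2 (edgeR adjusted p = 0.0604 to 0.161) and with library size alone (0.101). The list held 14 tested members, of which 2 rose, 0 fell and 12 did not pass, at a median log2 fold change of 0.72. This stands beside 9.81% higher and 8.15% lower among all tested IDs. With library size alone 1 member rose, 1 fell and the median was 0.35.

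Sister chromatids are held by cohesin and protected at centromeres by shugoshin until they separate. sgo1 (GRMZM2G074082), the shugoshin gene, had 41.2, 42.6 and 45.3 CPM in zygotes and 151, 117 and 131 CPM in basal cells, a change of 1.62 ± 0.29 (edgeR adjusted p = 0.00319). SMC3 (GRMZM2G456570), a cohesin subunit, had 75.4, 71.8 and 65.3 CPM and 199, 168 and 205 CPM (1.43 ± 0.27, edgeR adjusted p = 0.00357), and SMC6 (GRMZM2G025340), of the SMC5 and SMC6 repair complex, had 216, 159 and 138 CPM and 559, 338 and 352 CPM (1.28 ± 0.32, edgeR adjusted p = 0.0146). SMC6 lost its call without basal replicate 1 or zygote 24 h replicate 2 or 3 (edgeR adjusted p = 0.0613 to 0.0824). Of the 15 members tested, 4 rose, 0 fell and 11 did not pass, with a median log2 fold change of 0.48. The remaining gene that rose was mad2 (GRMZM2G047143), of the spindle checkpoint, at 1.126 ± 0.32 (edgeR adjusted p = 0.0281). mad2 lost its call without basal replicate 2 or 3 or zygote 24 h replicate 1 or 2 or 3 (edgeR adjusted p = 0.0545 to 0.121) and with library size alone (0.0832). No kinesin of the list was called. Among all tested IDs 9.81% were higher and 8.15% lower. With library size alone, 3 of the 15 members rose, 2 fell and the median was 0.12.

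Among regulators of the cell cycle the calls were near the 9.81% higher and 8.15% lower of all tested IDs. The retinoblastoma-related genes, which hold back entry into S phase, were higher in basal cells, RBR1 (GRMZM2G003043) with 96.5, 85.7 and 54.2 CPM against 183, 189 and 188 CPM (1.24 ± 0.31, edgeR adjusted p = 0.0151) and RBR2 (GRMZM2G153150) with 41.1, 39.9 and 34.0 CPM against 98.8, 91.1 and 60.3 CPM (1.12 ± 0.35, edgeR adjusted p = 0.0393). RBR1 lost its call without basal replicate 3 or zygote 24 h replicate 3 (edgeR adjusted p = 0.0504 to 0.0783) and with library size alone (0.0671). RBR2 lost its call without any 1 of the 6 libraries (edgeR adjusted p = 0.0549 to 0.148) and with library size alone and no filter on low counts (0.180 and 0.0553). wee1 (GRMZM5G878541), a kinase that inhibits CDKs, fell from 114, 131 and 182 CPM to 68.9, 48.5 and 57.6 CPM (-1.29 ± 0.24, edgeR adjusted p = 0.00372), and cyclin-C (GRMZM2G408242) from 58.2, 61.9 and 65.1 CPM to 40.2, 31.6 and 30.5 CPM (-0.86 ± 0.22, edgeR adjusted p = 0.0165). cyclin-C lost its call without basal replicate 2 or 3 or zygote 24 h replicate 2 or 3 (edgeR adjusted p = 0.0531 to 0.0677) and with all 18 libraries in the fit (0.0802). In this list of 16 tested genes, 2 rose, 2 fell and 12 did not pass, and the median log2 fold change was 0.43. The called members of this list were RBR1, RBR2, wee1 and cyclin-C alone, so no other cyclin and no CDK passed.

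No tested histone gene was called higher. The list held 11 tested members, of which 0 rose, 2 fell and 9 did not pass, at a median log2 fold change of -0.91. his2a1 (GRMZM2G305046), a histone H2A gene, ranged widely in zygotes, with 61.6, 63.7 and 0.619 CPM, and was low in basal cells, with 0.285, 0.657 and 1.98 CPM. Its groups overlapped, and the log2 fold change was -5.43 ± 1.55 (edgeR adjusted p = 0.0274). his2a1 lost its call without basal replicate 1 or 2 or 3 or zygote 24 h replicate 1 or 2 (edgeR adjusted p = 0.0583 to 0.103), and had a log2 fold change of -6.48 without basal replicate 3. H1 (GRMZM2G003002), a linker histone gene, had 11.4, 22.0 and 4.57 CPM and 0.285, 2.47 and 0.371 CPM (-3.59 ± 1.01, edgeR adjusted p = 0.0255). H1 lost its call without basal replicate 1 or 3 or zygote 24 h replicate 1 or 2 (edgeR adjusted p = 0.0533 to 0.102), and had a log2 fold change of -5.28 without basal replicate 2 and -2.93 without zygote 24 h replicate 2. How far these libraries, made from polyadenylated RNA, represent histone genes was not tested.

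Many chromatin and small RNA genes rose. Of the 72 members tested, 24 rose, 2 fell and 46 did not pass, with a median log2 fold change of 0.68, beside 9.81% higher and 8.15% lower among all tested IDs. Without the 13 tested IDs of shared reference entries, 18 of 59 rose and 2 fell, and of all 72 11 to 19 rose and 0 to 1 fell with 1 library left out. nfa101 (GRMZM2G140051), a histone chaperone of the NAP1 family, had 284, 252 and 293 CPM in zygotes and 848, 565 and 667 CPM in basal cells, a change of 1.33 ± 0.23 (edgeR adjusted p = 0.00237). nfc101 (GRMZM2G137965, also rbap2), a WD-repeat histone-binding protein, rose by 1.83 ± 0.35 (edgeR adjusted p = 0.00439), and the plant-type histone deacetylase hdt102 (GRMZM2G100146) by 1.87 ± 0.36 (edgeR adjusted p = 0.00415). dmt101 (GRMZM2G334041, also met1), the maintenance DNA methyltransferase and an ID of a shared entry, rose by 0.76 ± 0.23 (edgeR adjusted p = 0.0360). The other tested ID of dmt101, at 0.41, was not called, and the entry summed gave 0.77. SGS3 (GRMZM2G020187, also lbl1), of trans-acting siRNA production, rose by 1.16 ± 0.29 (edgeR adjusted p = 0.0142). dmt101 lost its call without any 1 of the 6 libraries (edgeR adjusted p = 0.0656 to 0.144) and with library size alone and no filter on low counts (0.101 and 0.0697). SGS3 lost its call without basal replicate 1 or 3 or zygote 24 h replicate 2 or 3 (edgeR adjusted p = 0.0508 to 0.0673). Lower in basal cells were the histone acetyltransferase gene hac108 (GRMZM2G044126), at 55.0, 59.5 and 74.2 CPM against 20.8, 22.1 and 21.3 CPM (-1.56 ± 0.36, edgeR adjusted p = 0.0107), and mop1 (GRMZM2G042443), the RNA-dependent RNA polymerase of RNA-directed DNA methylation, at -1.36 ± 0.43 (edgeR adjusted p = 0.0429). hac108 lost its call without zygote 24 h replicate 3 (edgeR adjusted p = 0.0508). mop1 lost its call without any 1 of the 6 libraries (edgeR adjusted p = 0.0682 to 0.137) and with all 18 libraries in the fit and no filter on low counts (0.0679 and 0.0531). With library size alone, 19 rose and 5 fell. Apart from nfa101 and hac108 these genes were chosen after their values were seen.

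In the list of DNA repair and meiosis genes, 3 of 15 tested members rose and 0 fell, with a median of 0.22 (-0.15 with library size alone, where 1 rose). ADPRT-1 (GRMZM5G831712), a poly(ADP-ribose) polymerase that senses DNA breaks, had 105, 74.1 and 83.2 CPM and 290.5, 184 and 204 CPM (1.37 ± 0.24, edgeR adjusted p = 0.00250).

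Cytokinin signals pass from a membrane histidine kinase to phosphotransfer proteins and on to response regulators. HP1 (GRMZM2G016439), a phosphotransfer protein, had 100.1, 90.9 and 53.8 CPM in zygotes and 328, 412 and 392 CPM in basal cells, a change of 2.21 ± 0.41 (edgeR adjusted p = 0.00372). hp2 (GRMZM2G014154), its relative, rose by 1.80 ± 0.56 (edgeR adjusted p = 0.0383) and was chosen after its values were seen. hp2 lost its call without any 1 of the 6 libraries (edgeR adjusted p = 0.0731 to 0.121) and with library size alone (0.0910). The response regulator gene RR9 (GRMZM2G060485) went the other way, from 57.0, 61.3 and 55.8 CPM to 35.3, 24.5 and 32.5 CPM (-0.91 ± 0.26, edgeR adjusted p = 0.0282). RR9 lost its call without any 1 of the 6 libraries (edgeR adjusted p = 0.0537 to 0.0918) and with all 18 libraries in the fit (0.0545). The list held 24 tested members, of which 3 rose, 1 fell and 20 did not pass, at a median log2 fold change of -0.27.

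Auxin is made from tryptophan by way of YUCCA monooxygenases. Yucca3 (GRMZM2G107761) had 30.5, 42.4 and 40.3 CPM in zygotes and 149.6, 97.4 and 303 CPM in basal cells, a change of 2.28 ± 0.41 (edgeR adjusted p = 0.00414). Basal replicate 3 was the highest of its group. Yucca3 had a log2 fold change of 1.67 without basal replicate 3. The gene was listed at 0 counts in eggs, but not all rising genes were low there. elfa3 had 560 ± 335 CPM and nfa101 452 ± 107 CPM in eggs (SD, n = 3), above their 24 h zygote means of 323 and 276 CPM. HP1 had 39.3 ± 25.2 CPM in eggs, below its 24 h zygote mean of 81.6 CPM. ARF1 (GRMZM2G169820), an auxin response factor chosen after its values were seen, rose by 1.91 ± 0.53 (edgeR adjusted p = 0.0237). ARF1 lost its call without basal replicate 1 or 2 or 3 or zygote 24 h replicate 2 or 3 (edgeR adjusted p = 0.0506 to 0.102). abp5 (GRMZM2G078508), of the auxin-binding protein family, fell from 36.2, 40.8 and 39.7 CPM to 8.65, 6.08 and 4.14 CPM (-2.63 ± 0.49, edgeR adjusted p = 0.00369). In this list of 44 tested genes, 3 rose, 8 fell and 33 did not pass, beside 9.81% higher and 8.15% lower among all tested IDs. The median log2 fold change was -0.77, and most called members of the auxin list were lower.

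Among other hormones, etr2 (GRMZM2G420801), an ethylene receptor, had 34.1, 30.8 and 28.1 CPM in zygotes and 148, 142 and 151 CPM in basal cells, a change of 2.25 ± 0.32 (edgeR adjusted p = 0.00109). VP15 (GRMZM2G121468), needed for the molybdenum cofactor of abscisic acid synthesis, fell from 14.8, 9.50 and 19.9 CPM to 1.42, 2.85 and 1.67 CPM (-2.89 ± 0.57, edgeR adjusted p = 0.00486). In the list of abscisic acid, gibberellin, ethylene and brassinosteroid genes, 4 of 37 tested rose and 2 fell, with a median of -0.76. For jasmonate, opr7 (GRMZM2G148281), a 12-oxophytodienoate reductase of its synthesis, had 14.2, 19.4 and 33.2 CPM and 2.73, 5.04 and 3.09 CPM (-2.62 ± 0.58, edgeR adjusted p = 0.00850), and TIFY6 (GRMZM2G117513), of the family that represses jasmonate responses, had 24.2, 31.8 and 24.1 CPM and 103, 131 and 82.0 CPM (1.98 ± 0.36, edgeR adjusted p = 0.00334). In the list of jasmonate and defence genes 2 of 79 tested rose and 5 fell, shares below those of all tested IDs, and the median was -0.95.

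Sugar metabolism showed a large change of sucrose synthase. ss2 (GRMZM2G152908), which the reference also names sus1, had 99.8, 159 and 82.6 CPM in zygotes and 1227, 899 and 766 CPM in basal cells, a log2 fold change of 3.08 ± 0.63 (edgeR adjusted p = 0.00582). GBSS1 (GRMZM2G024993), the waxy gene for amylose synthesis, had 152 counts over the 3 zygote libraries and 2 over the basal ones, and its level in zygotes was 59.2-fold (exact 95% counting interval 16.1 to 493) that in basal cells (edgeR adjusted p = 0.0158). GBSS1 lost its call without basal replicate 1 or 3 or zygote 24 h replicate 3 (edgeR adjusted p = 0.0557 to 0.0663), and was 26.1-fold (exact 95% counting interval 6.84 to 222) higher in zygotes without zygote 24 h replicate 3, with 2 basal counts left. Of the 26 members tested, 2 rose, 4 fell and 20 did not pass, with a median log2 fold change of -0.09. In glycolysis and respiration 4 of 44 rose and 4 fell. idh2 (GRMZM5G829778), an isocitrate dehydrogenase gene, went from 148, 127 and 187 CPM to 346, 285 and 314 CPM (1.03 ± 0.22, edgeR adjusted p = 0.00652), and PDK1 (GRMZM2G107196), a kinase that inactivates pyruvate dehydrogenase, from 54.9, 42.2 and 46.4 CPM to 11.2, 8.22 and 11.6 CPM (-2.21 ± 0.36, edgeR adjusted p = 0.00211).

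No cell wall gene of the list rose, and 5 of 39 tested members fell, against 8.15% of all IDs. CSLD1 (GRMZM2G015886), a cellulose synthase-like gene of tip growth and division, had 120.3, 113 and 283 CPM in zygotes and 51.7, 39.0 and 46.7 CPM in basal cells (-1.91 ± 0.39, edgeR adjusted p = 0.00727). It was listed at 0 counts in eggs and at 1.62 ± 0.659 CPM in 12 h zygotes, so its level peaked in the 24 h zygotes among the 4 stages given. The aquaporin gene PIP1-1 (GRMZM2G174807) had 10.6, 11.3 and 12.4 CPM and 0.911, 1.75 and 2.16 CPM (-2.82 ± 0.69, edgeR adjusted p = 0.0141) and was the only called aquaporin of 13 tested. PIP1-1 lost its call without basal replicate 1 (edgeR adjusted p = 0.0658).

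In transport, HAK12 (GRMZM2G009353), a potassium transporter, rose from 38.1, 33.0 and 37.1 CPM to 104, 87.4 and 112 CPM (1.49 ± 0.26, edgeR adjusted p = 0.00296). HAK12 lost its call with all 18 libraries in the fit (edgeR adjusted p = 0.114). nrt2.2 (GRMZM2G010251), a nitrate transporter, had 436 counts in the zygote libraries together and 1 in the basal ones, a level 339.6-fold (exact 95% counting interval 60.6 to 13450.0) higher in zygotes (edgeR adjusted p = 0.00109). nrt2.2 was at least 75.0-fold higher in zygotes without basal replicate 1, where the basal group was at 0 counts and was set to 3. In all 1 of 47 tested transporters rose and 4 fell. Among redox genes, 3 of 40 rose and 1 fell. gst1 (GRMZM2G116273), a glutathione S-transferase, had 443, 428 and 407 CPM and 942, 734 and 975 CPM (1.05 ± 0.20, edgeR adjusted p = 0.00419), and sod3 (GRMZM2G059991), the mitochondrial manganese superoxide dismutase, had 95.1, 78.7 and 115 CPM and 28.3, 19.7 and 24.1 CPM (-2.003 ± 0.26, edgeR adjusted p = 7.22e-04). Among lipid genes the calls lay near the shares of all tested IDs, with ACC1 (GRMZM5G858094), an acetyl-CoA carboxylase, at 0.99 ± 0.29 (edgeR adjusted p = 0.0289) and DGAT1-2 (GRMZM2G169089), which makes triacylglycerol, at -0.97 ± 0.25 (edgeR adjusted p = 0.0170), and 1 higher and 2 lower of 15. ACC1 lost its call without basal replicate 1 or 2 or 3 or zygote 24 h replicate 2 or 3 (edgeR adjusted p = 0.0514 to 0.111) and with library size alone (0.0939). DGAT1-2 lost its call without basal replicate 1 or 2 or zygote 24 h replicate 1 or 2 or 3 (edgeR adjusted p = 0.0509 to 0.0630).

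Of the autophagy genes, Atg10 (GRMZM2G066059) rose by 1.91 ± 0.45 (edgeR adjusted p = 0.0113) and Atg12 (GRMZM5G842517) fell by 1.71 ± 0.36 (edgeR adjusted p = 0.00710). In the list of vesicle traffic and autophagy 3 of 18 rose and 1 fell. Atg10 lost its call without zygote 24 h replicate 3 (edgeR adjusted p = 0.0616) and with all 18 libraries in the fit (0.0619). Cullin-1 (GRMZM2G166089), the scaffold of SCF ubiquitin ligases, had 207, 189 and 164 CPM and 375, 326 and 439 CPM (1.03 ± 0.20, edgeR adjusted p = 0.00438) and was the 1 called gene of 9 tested in the ubiquitin and proteasome list.

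Transcription factor families were counted one by one, beside 9.81% higher and 8.15% lower among all tested IDs. MYB factors had 2 higher and 6 lower of 41 tested (median -0.91), bHLH factors 0 and 3 of 23 (-0.97), bZIP factors 0 and 2 of 30 (-0.86), AP2 and EREB factors 1 and 3 of 30 (-0.55), MADS-box factors 0 and 1 of 15 (-1.07) and NAC factors 0 and 0 of 17 (-1.23). MYBR26 (GRMZM2G112764) fell from 67.2, 64.1 and 71.3 CPM to 22.7, 20.3 and 15.1 CPM (-1.80 ± 0.29, edgeR adjusted p = 0.00192), while MYB59 (GRMZM2G093789) rose from 19.6, 11.4 and 9.05 CPM to 72.4, 49.0 and 43.1 CPM (2.04 ± 0.52, edgeR adjusted p = 0.0166). MYB59 lost its call without basal replicate 1 or zygote 24 h replicate 2 or 3 (edgeR adjusted p = 0.0696 to 0.0809). bHLH172 (GRMZM2G017586), an ID of a shared entry, had 52.0, 45.9 and 62.4 CPM and 7.34, 14.7 and 9.15 CPM (-2.36 ± 0.37, edgeR adjusted p = 0.00172), and the entry summed gave -1.45. bZIP58 (GRMZM2G149040) had 37.5, 39.9 and 48.4 CPM and 14.3, 18.1 and 10.3 CPM (-1.56 ± 0.39, edgeR adjusted p = 0.0161). bZIP58 lost its call without basal replicate 1 or 3 or zygote 24 h replicate 3 (edgeR adjusted p = 0.0577 to 0.0728). M14 (GRMZM2G032070), a MADS-box gene with a shared entry, fell by 2.31 ± 0.69 (edgeR adjusted p = 0.0323). M14 lost its call without basal replicate 1 or 3 or zygote 24 h replicate 1 or 2 or 3 (edgeR adjusted p = 0.0564 to 0.123), and had a log2 fold change of -2.97 without basal replicate 2. EREB26 (GRMZM2G317160) was rare, at 0.0442, 0.216 and 0.143 CPM in zygotes and 1.14, 1.10 and 1.36 CPM in basal cells, and rose by 3.09 ± 1.001 (edgeR adjusted p = 0.0496). EREB26 lost its call without any 1 of the 6 libraries (edgeR adjusted p = 0.0919 to 0.153) and with RLE scaling, library size alone, no filter on low counts and upper-quartile scaling (0.0503, 0.0804, 0.0898 and 0.0549).

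**Figure D5:**
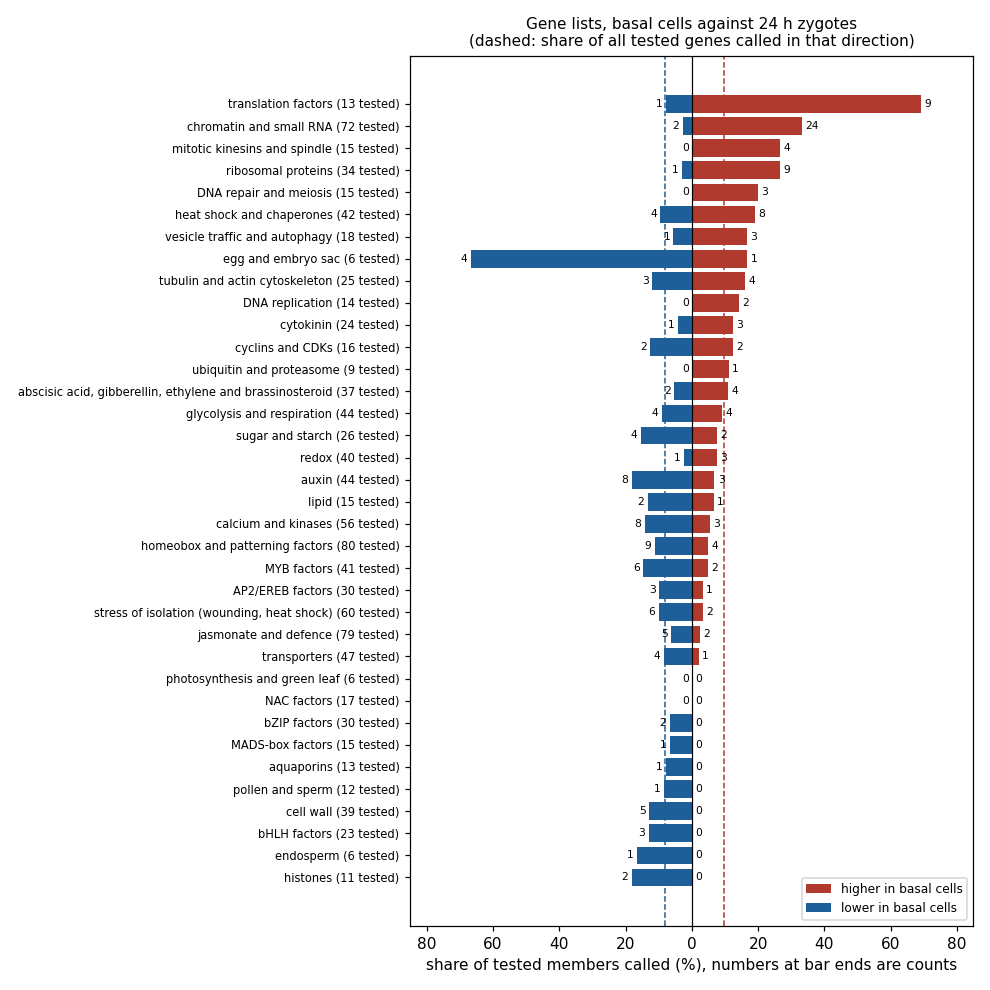
Share of tested members of each of the 36 gene lists that were called higher (right) or lower (left) in basal cells than in 24 h zygotes (x axis, percent), with counts at the bar ends and the shares of all tested IDs, 9.81% and 8.15%, as dashed lines. Translation factors reach farthest to the right and the 6 egg and embryo sac genes farthest to the left.

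The largest changes among the genes named here belonged to IDs without a symbol. GRMZM2G438938 had 1 count in the 3 zygote libraries and 22.9, 25.6 and 31.2 CPM in the basal cells, 1766-fold (exact 95% counting interval 316 to 69820.0) higher (edgeR adjusted p = 9.43e-04). Its reference entry is shared, and the sum of the entry gave a log2 fold change of 0.84. GRMZM5G836827 had 2 counts in zygotes and 6.72, 14.6 and 9.33 CPM in basal cells, 343-fold (exact 95% counting interval 94.6 to 2843) higher (edgeR adjusted p = 0.00881). GRMZM2G024527 had 75.1, 75.6 and 0.333 CPM in zygotes, 0, 0.164 and 0.0618 CPM in basal cells and 228 ± 246 CPM in eggs, with a log2 fold change of -9.23 ± 2.37 (edgeR adjusted p = 0.0170). GRMZM2G024527 lost its call without basal replicate 1 or 2 or 3 (edgeR adjusted p = 0.0517 to 0.0741), and was 1747-fold (exact 95% counting interval 313 to 69010.0) higher in zygotes without basal replicate 2, with 1 basal count left. GRMZM2G042125 fell from 14.6, 9.50 and 19.96 CPM to 1 count in the 3 basal libraries, a level 754-fold (exact 95% counting interval 135 to 29810.0) higher in zygotes (edgeR adjusted p = 3.88e-04), after 242 ± 183 CPM in eggs. GRMZM2G438938 was at least 389-fold higher in basal cells without zygote 24 h replicate 1, where the zygote group was at 0 counts and was set to 3. GRMZM5G836827 was at least 149.5-fold higher in basal cells without zygote 24 h replicate 2, where the zygote group was at 0 counts and was set to 3. GRMZM2G042125 was at least 173-fold higher in zygotes without basal replicate 3, where the basal group was at 0 counts and was set to 3.

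Few genes switched between the groups outright. With detection taken as at least 1 CPM in all 3 libraries and absence as under 0.1 CPM in all 3, on a scale set over all 18 libraries, 25 IDs were detected in basal cells and not in 24 h zygotes, and 20 were detected in zygotes and not in basal cells. Of the 25, 15 also reached 1 CPM in all apical libraries and 5 shared a reference entry, and 10 were under 0.1 CPM in all 12 h libraries. Of the 20, 16 had been detected in all 12 h zygotes and 10 in all eggs, and 0 in all apical libraries. The named member of the first set was HK1b2 (GRMZM5G833140), a cytokinin receptor kinase, at 1.57, 4.41 and 3.09 CPM in basal cells against 0, 0.0368 and 0 CPM in zygotes, which did not pass the test (edgeR adjusted p = 0.0520). In the second set nrt2.2 and LOL3 (GRMZM2G120069) had names, LOL3 with 1.41, 1.25 and 3.43 CPM in zygotes and 0 counts in basal cells. The first count was 30 to 54 and the second 32 to 64 when 1 library was left out, and fewer libraries make both criteria easier to meet.

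Basal cells and their apical sisters were not separated by the main test. Of 23806 IDs, 0 (0.0%) had an adjusted p under 0.05 in edgeR, the smallest adjusted p was 0.377, and 1267 IDs had an unadjusted p under 0.05. DESeq2 called 52 IDs higher and 30 lower in basal cells. The groups did not overlap for 46 of the 52 and 19 of the 30, beside 14.9% of all 23806 IDs, and 7 of the 52 and 11 of the 30 reached 1 CPM in no more than 1 of the 6 libraries. LIM4 (GRMZM2G024887), which had the smallest adjusted p in DESeq2, was one of these, at 23.8, 0 and 0 CPM in apical cells and 0 counts in basal cells. The edgeR fit to these 2 groups alone called 2 higher, es4 and the unnamed GRMZM2G125350. es4 had 69.5, 49.7 and 53.2 CPM in basal and 10.2, 11.2 and 9.70 CPM in apical cells, so every basal library was above every apical one, and both groups were far below the zygotes. Its log2 difference was 2.51 ± 0.25 (edgeR adjusted p = 0.0426 for the 2 groups alone, 0.00308 in DESeq2 and 0.550 in the fit to 5 groups). es1 had 13.2, 4.33 and 2.53 CPM in basal and 0.407, 1.23 and 0.877 CPM in apical cells (DESeq2 adjusted p = 0.00700, edgeR 0.700). AGPLS3 (GRMZM2G144002), a large subunit of ADP-glucose pyrophosphorylase, had 79.2, 47.2 and 62.8 CPM and 18.3, 27.6 and 23.9 CPM (DESeq2 adjusted p = 4.72e-05, edgeR 0.550). Lower in basal cells was sbp9 (GRMZM2G081127), of the SBP family of transcription factors, at 47.1, 54.5 and 44.6 CPM against 96.1, 138 and 109 CPM (DESeq2 adjusted p = 0.00328, edgeR 0.550). HP1, which neither DESeq2 nor either edgeR fit called, had 328, 412 and 392 CPM in basal and 99.6, 146 and 143 CPM in apical cells, a log2 difference of 1.54 ± 0.40 (edgeR adjusted p = 0.761). These genes were chosen after their values were seen.

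Set side by side against the same 24 h zygotes, whose libraries both comparisons share, basal and apical cells gave the following values. The log2 change of elfa3 was 1.89 ± 0.37 in basal and 1.95 ± 0.37 in apical cells, that of MCM6 2.80 ± 0.61 and 2.92 ± 0.61, and that of Ann6 -3.61 ± 0.30 and -3.39 ± 0.30. For es1 it was -5.92 ± 0.77 and -8.92 ± 0.90, and for HP1 2.21 ± 0.41 and 0.67 ± 0.40. Of all tested IDs, 9.81% were higher and 8.15% lower in basal cells, and 13% higher and 11.8% lower in apical cells. Among 13 translation factors 9 rose and 1 fell in basal cells, and 9 rose and 1 fell in apical cells. Of 44 auxin genes 3 rose and 8 fell in basal cells, against 6 and 4 in apical cells. For 39 cell wall genes 0 rose and 5 fell, against 6 and 5. For 72 chromatin and small RNA genes 24 rose and 2 fell, against 33 and 3. For 34 ribosomal protein genes 9 rose and 1 fell, against 7 and 2. Several of these counts lie near the shares of all tested IDs. The lists given are a selection. Counts of calls do not test the sisters against each other, where the main test called no ID.

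Markers of other cells were looked for in the same libraries. The 43 endosperm genes summed to 60.2 to 134 CPM in zygotes and 37.8 to 138 CPM in basal cells, with 17 of the 43 at 0 counts in both groups. gz27 (GRMZM2G138727), the 27 kDa gamma-zein of the endosperm, was the 1 called member of 6 tested, at 9.42, 9.93 and 40.01 CPM in zygotes and 1.08, 2.58 and 1.92 CPM in basal cells (-3.41 ± 0.72, edgeR adjusted p = 0.00664). gz27 had a log2 fold change of -2.38 without zygote 24 h replicate 3. In eggs gz27 had 88.4, 16.5 and 26.9 CPM, and the 43 endosperm genes summed to 135 to 283 CPM. The 13 pollen and sperm genes summed to 17.8 to 27.1 CPM in zygotes and 6.14 to 11.6 CPM in basal cells, whereas apical libraries ran from 2.47 to 214 CPM, so the comparison of sisters includes apical libraries that differ in these genes. mgs2 (GRMZM2G080056), a male gametophyte gene, had 114 counts in zygotes and 0 in basal cells, at least 29.6-fold lower with the basal group set to a floor of 3 counts (edgeR adjusted p = 0.0324). mgs2 lost its call without basal replicate 1 or 2 or 3 or zygote 24 h replicate 1 or 3 (edgeR adjusted p = 0.0620 to 0.0932), and was at least 19.3-fold higher in zygotes without zygote 24 h replicate 3, where the basal group was at 0 counts and was set to 3. The 21 leaf genes summed to 21.4 to 73.7 CPM and 28.6 to 55.5 CPM. In eggs the pollen and sperm genes summed to 32.1 to 64.2 CPM and the leaf genes to 15.95 to 98.7 CPM. Genes of wounding and heat shock, 72 in all, summed to 3841 to 4080 CPM in zygotes and 4241 to 5509 CPM in basal cells, so all basal sums were above all zygote sums, while 2 of the 60 tested members rose and 6 fell. The part of these genes in the results was not tested.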

How the data were processed

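The files hold whole-number counts per gene ID, deposited without normalisation. The submitters' processing notes name STAR 2.5.2a and featureCounts beside FastQC, Trimmomatic 0.32, cutadapt 1.13, DESeq2 and the genome build B73 RefGen_v3. Annotation, strand setting and treatment of multi-mapped reads were not given in the sources used here. Per the labels' protocols, cDNA was made with the SMARTer kit and fragmented by Nextera tagmentation, which does not mark strand, so reads of overlapping and antisense genes cannot be told apart. PCR copies are not independent molecules, and intervals and floors cover counting error only.

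The 39475 IDs of 18 libraries were read, and edgeR 4.0.16 (R 4.3.3) was fitted to the 15 libraries without sperm, so that 5 groups shared 1 estimate of the spread, with the quasi-likelihood test, robust dispersions, TMM scaling and filterByExpr. CPM were taken on the TMM-scaled library sizes. Calls had a Benjamini-Hochberg adjusted p under 0.05. The error of a log2 fold change is its size divided by the square root of F. DESeq2 1.42.0, other scalings, other filters, other sample sets, a replicate block and the omission of each library were alternatives. Summing IDs of a shared entry, and leaving such IDs out of lists, were chosen after seeing the data. Counts were also simulated with 1 spread for all genes and no difference between groups beyond the genes changed in basal cells. On these the fit called 46 of 50 genes raised 4-fold and 12 of 50 raised 2-fold. Real genes differ in spread and the real groups in many genes, so these counts do not tell what share of real changes was called.

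Symbols came from a RefSeq gene table built on Zm-B73-REFERENCE-NAM-5.0. It paired 18908 IDs, 2562 with an informative symbol, and 521 that matched several genes were left unnamed. The members and the 36 lists were chosen with earlier results of these data known. Named genes were the 10 largest changes per direction among called, symbol-bearing genes with at least 10 CPM and groups that did not overlap, the called list member with the smallest adjusted p per direction (3 for cell cycle lists and histones), and the 2 largest changes per direction among IDs without a symbol. A further part, the 5 most significant genes of basal against apical cells, named none. No 2 libraries agreed within sampling noise. Gene lengths, coordinates and sequences were not used here.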

Additional observations from a re-analysis of the deposited data

How the results depend on the processing

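Against 4276 called IDs (2335 higher and 1941 lower in basal cells), DESeq2 called 6479 (3234 lower), the fit on the 2 groups alone 8194 (4274 and 3920), and library size alone 1497 higher and 3018 lower. Leaving out 1 library gave 1690 to 2808 calls, 963 to 1621 higher and 727 to 1187 lower. The replicate block, on the 2 groups alone, gave 7316 (3943 and 3373), and of the genes named in the text his2a1 (-4.94, edgeR adjusted p = 0.126) and IG1 (-3.34, 0.0890) lost their calls under it. Same-numbered basal and zygote libraries deviated together with correlations of 0.048, 0.243 and -0.024 over 14974 genes. Basal replicate 2 correlated best with the zygote library of its own number, and replicates 1 and 3 did not. These few correlations cannot show a shared source or its absence, so whether the numbers pair these samples was not settled. For basal and apical cells the values were 0.408, 0.466 and -0.049. Basal replicates 1 and 2 thus correlated best with the apical library of their own number, and replicate 3 did not. Whether the numbers pair the sisters was not settled. Basal against apical cells gave 0 calls, 82 with DESeq2 (52 higher and 30 lower) 2 with these groups alone (2 higher), and 0 with the replicate block on these groups, which loses both of those 2 calls. IDs detected in basal cells and not in zygotes numbered 25, and 12 with detection from 2 CPM, 153 with absence under 0.5 CPM, 8 with absence as 0 counts, 15 with library size alone, and 30 to 54 without 1 library. The reverse numbered 20, and 7, 148, 10, 32, and 32 to 64. The median of all tested IDs was -0.20 and moved to -0.55 with library size alone. Of 78 genes named by the rule, with 1244 alternatives, 0 reversed, 134 lost the call, and 47 genes were called under every alternative run; 29 lost it without some library. Of 1152 list counts under alternatives, 384 moved by over 1.5 times. The causes were not tested. The small number of cells and of libraries limits the precision of all values.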
